A study of Mus musculus with 6 samples.

Results

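The genes described are those of the BCL2 family, the caspases and the death receptors, with the inhibitors, mitochondrial factors and p53 proteins that act with them. They were taken by gene symbol from a list of 39, and 37 of them had a row in the deposited table of 16454 genes. Hrk, a BH3-only gene, and Fasl, the ligand of Fas, had no row and were not measured. Messenger RNA was sequenced from single whole ovaries of 21-day-old CD1 mice, an outbred stock. The DEHP lineage was generation F3 after dams dosed with di(2-ethylhexyl) phthalate (DEHP), a plasticizer, at 20 µg/kg/day, and it was represented by 3 ovaries. The control lineage was the same generation after dams given the tocopherol-stripped corn oil vehicle, also with 3 ovaries. The labels record dosing of the founding dams (F0) and none of the later generations. They give neither the litters of the 6 ovaries nor the number of founders, so the p-values rest on the spread between single ovaries alone.

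The members form the machinery by which a cell kills itself. Bax, Bak1 and Bok encode effectors that open the outer mitochondrial membrane, the anti-apoptotic proteins Bcl2, Bcl2l1, Bcl2l2 and Mcl1 hold them back, and the BH3-only proteins release that hold. Cytochrome c from the opened mitochondria joins Apaf1 and activates the initiator caspase Casp9, while ligand-bound death receptors activate Casp8, and the inhibitor of apoptosis proteins (IAPs) restrain both routes. In the ovary this machinery is known for the loss of oocytes and for atresia, the death of follicles, in which granulosa cells die by apoptosis.

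A known region of BCL2 family proteins is BH3, the helix by which the pro-apoptotic proteins bind the anti-apoptotic ones. The coding stretch of that region is shown for 13 members because pro- and anti-apoptotic BCL2 proteins carry the same motif. Each stretch holds 13 codons (39 bases), written 5′ to 3′ on the coding strand from GENCODE's transcripts on GRCm38. Capitals mark the codon of the leading hydrophobic residue of the motif and the codons of its small residue and its aspartate. The motif searched also sets the residue after the aspartate, which is not capitalised.
Bax: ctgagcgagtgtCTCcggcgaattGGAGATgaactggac
Bak1: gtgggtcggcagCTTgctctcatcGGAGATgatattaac
Bok: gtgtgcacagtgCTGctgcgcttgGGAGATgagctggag
Bcl2l11: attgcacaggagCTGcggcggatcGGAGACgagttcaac
Bad: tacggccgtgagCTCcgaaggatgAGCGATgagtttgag
Bid: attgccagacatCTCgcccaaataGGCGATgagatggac
Bik: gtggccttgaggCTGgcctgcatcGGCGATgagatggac
Bmf: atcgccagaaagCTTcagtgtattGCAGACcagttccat
Bbc3: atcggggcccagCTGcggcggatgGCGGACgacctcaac
Bcl2: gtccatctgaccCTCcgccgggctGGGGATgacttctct
Bcl2l1: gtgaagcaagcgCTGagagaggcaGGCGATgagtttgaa
Bcl2l2: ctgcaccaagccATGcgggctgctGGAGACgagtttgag
Mcl1: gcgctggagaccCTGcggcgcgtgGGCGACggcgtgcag

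The small residue before the aspartate was glycine in 10 of the 13, alanine in Bmf and Bbc3 and serine in Bad. The leading residue was leucine in 12 and methionine in Bcl2l2. The motif searched was leucine or methionine, any 3 residues, glycine, alanine or serine, then aspartate, followed by aspartate, glutamate, glutamine or glycine, and each gene was read in its longest annotated transcript with a match, or its longest where none had one. It occurred exactly once in each of these 13 proteins, which are the members chosen for holding it. Of the 15 BCL2 family members with a row, 2, Bcl2l13 and Pmaip1, held no match. That says only that these letters, the one after the aspartate included, do not occur together in their annotated proteins. The motif occurred in 6.82% of the 6932 protein-coding genes with proteins of the same length range, 150 to 331 codons. Among the members shown, its methionine occurs in Bcl2l2 alone, its serine in Bad, its glutamine in Bmf and its final glycine in Mcl1. The letters allowed thus cover those of the members shown, and the share of members that match does not measure how specific the motif is. A match describes the letters and is not in itself a binding region. The stretch lies at chr7:45465997-45466035 on the minus strand (exon 3) in Bax, at chr17:27022531-27022569 on the minus strand (exon 4) in Bak1 and at chr1:93686645-93689170 on the plus strand in Bok, where it crosses from exon 2 into exon 3. It lies at chr2:128147138-128147176 on the plus strand in Bcl2l11, chr19:6950780-6950818 on the plus strand in Bad, chr6:120897289-120897327 on the minus strand in Bid, chr15:83543072-83543110 on the plus strand in Bik, chr2:118545100-118545138 on the minus strand in Bmf and chr7:16313761-16313799 on the plus strand in Bbc3. Apart from that of Bok, each stretch lies within a single coding exon. In the anti-apoptotic genes it lies at chr1:106712575-106712613 on the minus strand in Bcl2, chr2:152829697-152829735 on the minus strand in Bcl2l1, chr14:54884505-54884543 on the plus strand in Bcl2l2 and chr3:95659424-95659462 on the plus strand in Mcl1.

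Levels are given in CPM (counts scaled to a common library size), computed from the deposited log2 values, and differences are log2 differences of the DEHP lineage minus the control lineage with 95% intervals from limma in parentheses. Gene positions come from RefSeq's annotation of GRCm38.p6. The number of reads per library is unknown, since the files hold no counts. None of the 37 members passed an adjusted p of 0.05 over all genes by limma with Benjamini-Hochberg adjustment (0 of 37, with adjusted p between 0.565 and 0.998), where 0.0425% of all genes were called. An unadjusted p under 0.05 was found for 1 member, Casp9, against 8.78% of all genes. The groups did not overlap in 3 members (8.11%), Casp9 and Birc3 on the higher and Bcl2l13 on the lower side, against 22.9% of all genes. With 1 ovary left out, the count and the share of all genes were both higher. The count was 11 without control-lineage replicate 2, against 37.1% of all genes, and 11 without control-lineage replicate 3, against 34.7%. It was 6 without DEHP-lineage replicate 2, against 38.0%, 6 without control-lineage replicate 1, against 36.3%, and 5 without DEHP-lineage replicate 1, against 29.1%. The difference was above 0 in 15 members and below 0 in 22, with a median of -0.02, while the median over all genes was -0.01 and 46.9% of them were above 0. Among the 30 members with a mean log2 CPM of at least 3, 40% were above 0 with a median of -0.021. Of all genes at that level 41.3% were above 0, with a median of -0.028. In 28 members the 95% interval lay within 0.5 of 0 in both directions (75.7%, against 53.8% of all genes), and in 35 it lay within 1. Intervals depend on level. With a mean log2 CPM of at least 3 the share within 0.5 was 93.3% of 30 members, against 81.3% of genes at that level. Of the 7 members below 3 it was 0.

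**Figure D1:**
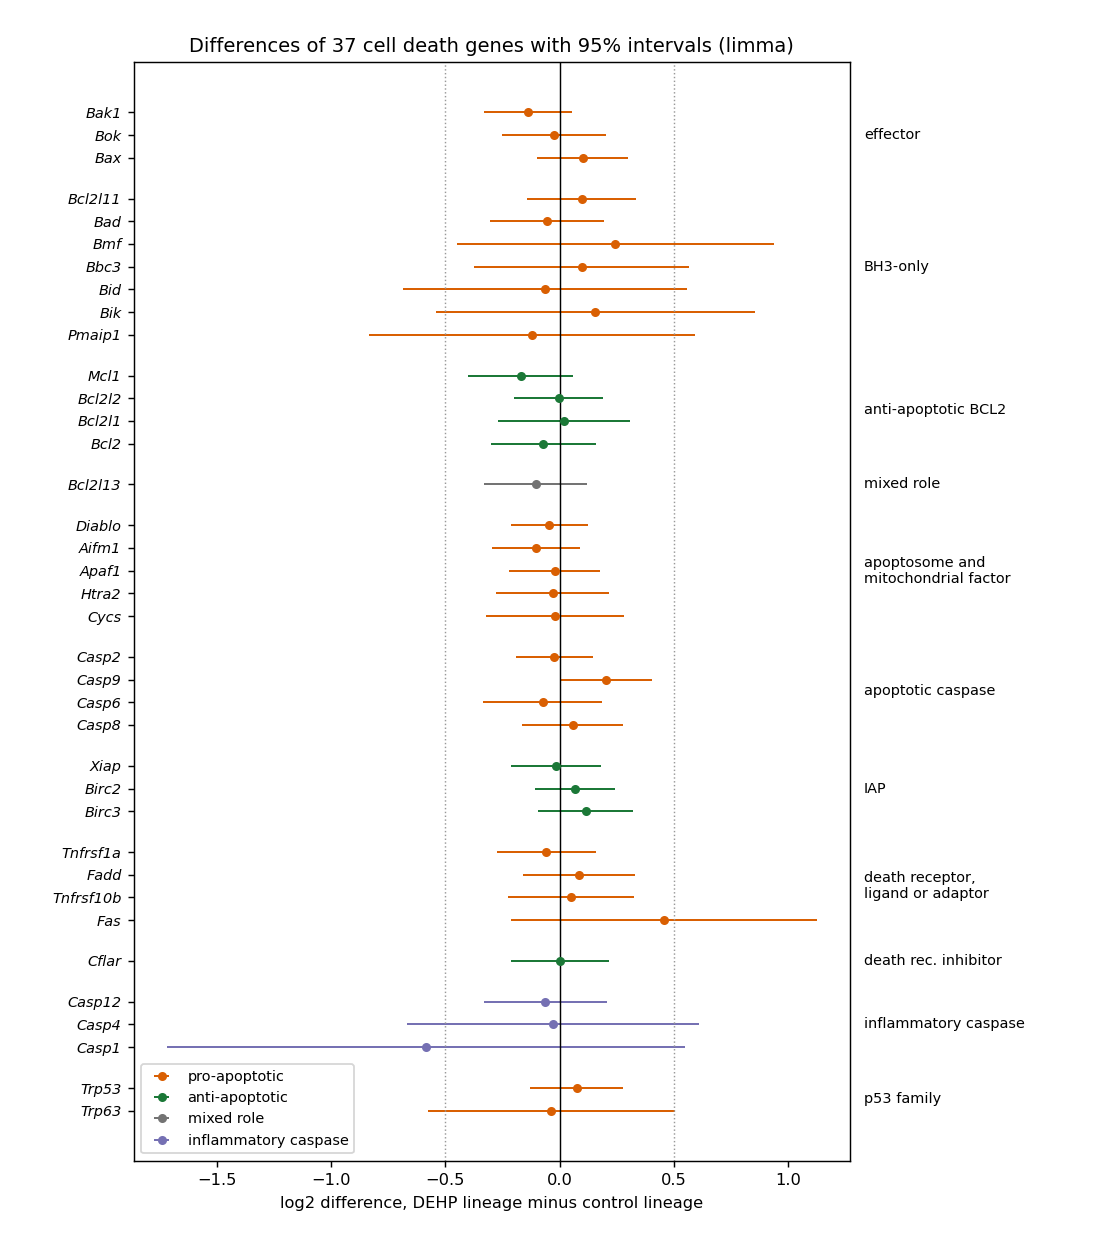
Log2 difference of the DEHP lineage minus the control lineage (horizontal axis) for each of the 37 measured genes (vertical axis, grouped by role), with points for the estimate and bars for limma's 95% interval over 3 ovaries each; dotted lines mark 0.5 on either side of 0. The interval of Casp9 lies just above 0, and the widest intervals are those of Casp1, Fas, Pmaip1, Bik and Bmf.

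The BH3 stretches of the effectors all hold the codons GGAGAT. Per kb of exons summed over all annotated transcripts, over the 6 ovaries, Bok stood at 32.8 CPM, Bak1 at 31.6 and Bax at 30.96. These levels depend on the annotated exons, which can be longer than the main transcript. The exons of Bax overlap those of Gm45808 on the same strand over 12.2% of their length. Bax (chromosome 7, 45461695 to 45466903) stood at 51.0, 49.6 and 51.0 CPM in DEHP-lineage ovaries, against 48.2, 43.4 and 50.1 CPM in control-lineage ovaries. Only control-lineage replicate 2 lay well below the others, and the groups overlapped. The difference was 0.10 (-0.10 to 0.30; limma adjusted p 0.767). Bok, an effector that does not need BH3-only proteins, stood at 55.7, 64.7 and 59.2 CPM in DEHP-lineage ovaries, against 65.9, 61.3 and 55.7 CPM in control-lineage ovaries. Both groups covered nearly the same range, with a difference of -0.03 (-0.25 to 0.20). Bak1 averaged 72.6 ± 2.36 CPM in the DEHP lineage and 80.1 ± 5.95 CPM in the control lineage (SD, n = 3 each), a difference of -0.14 (-0.33 to 0.05). The exons of Bak1 overlap those of Ggnbp1 on the other strand over 25.5% of their length, and as no source used here states the strand setting of the counting, reads of the overlap cannot be told apart.

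BH3-only genes, the sensors of stress, spanned a wide range of levels, from 8.85 CPM per kb for Bad to 0.385 for Pmaip1, which encodes Noxa. Bad, which binds Bcl2 and Bcl2l1, stood at 22.7, 21.1 and 22.9 CPM in DEHP-lineage ovaries, against 24.4, 23.9 and 21.2 CPM in control-lineage ovaries. The groups overlapped, with a difference of -0.06 (-0.30 to 0.19). The exons of Bad overlap those of Gpr137 on the other strand over 20.5% of their length, so its level carries the same uncertainty as that of Bak1. Bcl2l11 encodes Bim, which can bind every anti-apoptotic member, and it stood at 30.5, 30.2 and 30.4 CPM in DEHP-lineage ovaries, against 28.1, 31.4 and 25.9 CPM in control-lineage ovaries. The DEHP-lineage ovaries lay close together and inside the range of the controls (difference 0.10, -0.14 to 0.34). Pmaip1, a p53 target gene that acts on Mcl1, stood at 1.00, 1.08 and 0.949 CPM in DEHP-lineage ovaries, against 0.903, 1.37 and 1.07 CPM in control-lineage ovaries. Control-lineage replicate 2 was the highest, and the difference of -0.12 had a wide interval (-0.83 to 0.59). The other BH3-only genes of low level had wide intervals too. The difference was 0.16 (-0.54 to 0.85) for Bik, -0.06 (-0.68 to 0.55) for Bid, which Casp8 cleaves into its active form, and 0.10 (-0.37 to 0.57) for Bbc3, which encodes Puma.

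Bmf, which with Bbc3 has alanine in the BH3 stretches above and is tethered to the cytoskeleton and released by stress, had 1 ovary far from the rest. It stood at 18.7, 21.0 and 21.2 CPM in DEHP-lineage ovaries, against 21.8, 22.5 and 10.2 CPM in control-lineage ovaries, so that control-lineage replicate 3 alone was low and the other 5 ovaries lay between 18.7 and 22.5 CPM. The difference of 0.24 turned to -0.13 without that ovary (limma adjusted p 0.842 with it and 0.894 without). Bmf was picked out after its values were seen. The same ovary had the highest level of Bid, at 5.08 CPM, and the lowest of Bcl2l11.

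The anti-apoptotic genes were led by Mcl1, a protein of short half-life that growing cells depend on, at 62.1 CPM per kb. It stood at 219, 179 and 205 CPM in DEHP-lineage ovaries, against 209.6, 237 and 231 CPM in control-lineage ovaries. The lowest value was that of DEHP-lineage replicate 2 and the highest that of control-lineage replicate 2, and the difference of -0.17 had an interval of -0.40 to 0.06 (limma adjusted p 0.657). It was -0.09 without DEHP-lineage replicate 2 and -0.23 without DEHP-lineage replicate 1 (limma unadjusted p 0.038, adjusted p 0.550 in that fit). Bcl2, the founding member of the family, was the lowest of the 4 per length (2.69 CPM per kb) and stood at 23.1, 25.8 and 23.4 CPM in DEHP-lineage ovaries, against 24.7, 26.2 and 24.9 CPM in control-lineage ovaries. All 6 ovaries lay within a narrow band, and the difference was -0.07 (-0.30 to 0.16). Bcl2l1, which encodes Bcl-xL, stood at 50.7, 45.8 and 48.0 CPM in DEHP-lineage ovaries, against 43.6, 43.2 and 56.8 CPM in control-lineage ovaries. Control-lineage replicate 3 was the highest of the 6, and the difference was 0.02 (-0.27 to 0.31). Bcl2l2, which encodes Bcl-w, averaged 64.0 ± 4.17 CPM in the DEHP lineage and 64.1 ± 2.87 CPM in the control lineage (SD, n = 3 each), and its difference rounded to zero with an interval of -0.20 to 0.19. The intervals of all 4 genes lay within 0.5 of 0.

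Bcl2l13, a mitochondrial protein with reported roles in both cell death and mitophagy, was the member whose DEHP-lineage values all lay below the controls. It stood at 19.5, 20.3 and 19.8 CPM in DEHP-lineage ovaries, against 21.7, 21.8 and 20.7 CPM in control-lineage ovaries. The gap between the groups was small, the difference was -0.11 (-0.33 to 0.12) and the adjusted p by limma was 0.786. Bcl2l13 (chromosome 6, 120836206 to 120892842) lies next to Bid (chromosome 6, 120893119 to 120917062), 276 bases apart in RefSeq's annotation of GRCm38.p6, and in GENCODE's their exons overlap on opposite strands over 6.91% of those of Bcl2l13 and 17.7% of those of Bid.

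**Figure D2:**
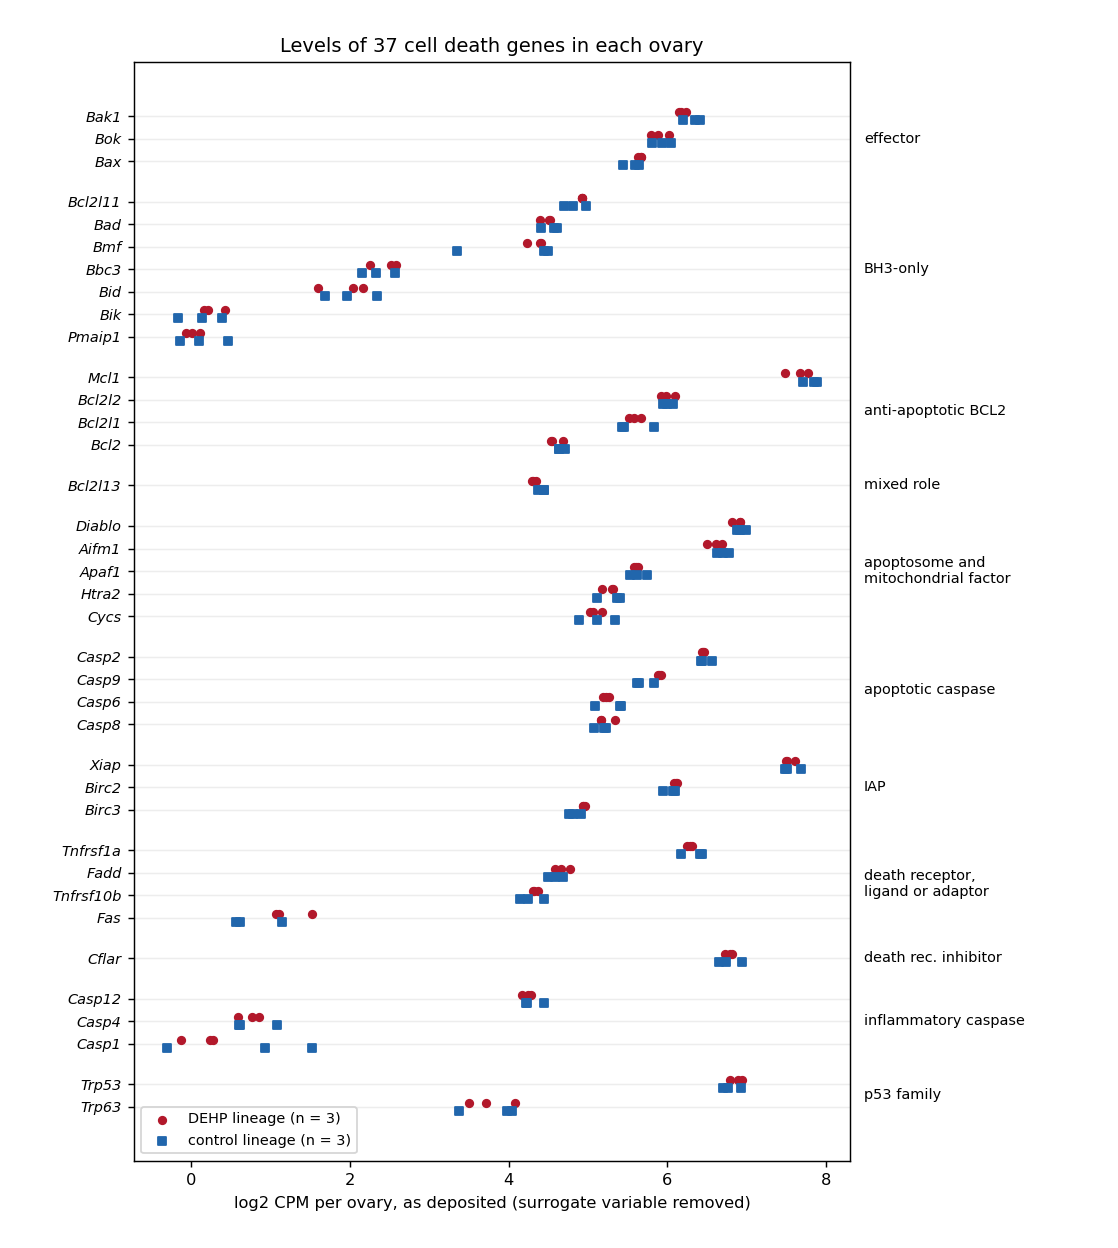
Level of each of the 37 measured genes in each ovary as log2 CPM (horizontal axis), with genes grouped by role and ordered by level (vertical axis); red circles are the 3 DEHP-lineage ovaries and blue squares the 3 control-lineage ovaries. Levels differ far more between genes than between ovaries, and the separate blue square of Bmf is control-lineage replicate 3.

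Setting the opposing sides against each other, 25 measured members were counted as pro-apoptotic and 8 as anti-apoptotic. The former were the effectors, BH3-only genes, apoptotic caspases, mitochondrial and apoptosome factors, death receptors with Fadd, and the p53 family. The latter were the anti-apoptotic BCL2 genes, Cflar and the IAPs. Of the pro-apoptotic members 11 had a difference above 0 and 14 below, with a median of -0.02 and a mean of 0.03, which differ in sign. Of the anti-apoptotic members 4 were above 0 and 4 below, with a median of -0.001 and a mean of -0.01. The mean log2 CPM of the pro-apoptotic members minus that of the anti-apoptotic members, taken as a deviation from its 6-ovary average, came to 0.001, 0.03 and 0.03 in the DEHP lineage, against 0.04, -0.01 and -0.09 in the control lineage. The highest and the lowest of these values were both control ovaries, and the group means differed by 0.04, with SDs of 0.02 in the DEHP lineage and 0.07 in the control lineage (n = 3 each). The difference was 0.003 without control-lineage replicate 3 and 0.07 without control-lineage replicate 1. The median of the pro-apoptotic members was above 0 on leaving out DEHP-lineage replicate 1 or 2 or control-lineage replicate 1 or 2. No test was made of this score, since its members were chosen with results of these data known.

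Pairs of genes whose proteins oppose each other were compared in the same way and without a test. The log2 ratio of Bax to Bcl2 was 1.144, 0.94 and 1.12 in the DEHP lineage, against 0.96, 0.73 and 1.01 in the control lineage, and the groups overlapped. The ratio of Bax to Bcl2l1 was 0.01, 0.11 and 0.09 in the DEHP lineage, against 0.14, 0.01 and -0.18 in the control lineage. That of Bak1 to Mcl1 averaged -1.46 ± 0.19 in the DEHP lineage and -1.496 ± 0.17 in the control lineage (SD, n = 3 each). The ratio of Bcl2l11 to Mcl1 was -2.84, -2.57 and -2.75 in the DEHP lineage, against -2.90, -2.92 and -3.15 in the control lineage. It was the 1 of these 4 ratios in which the groups did not overlap, with a difference of 0.27. The groups did not overlap in 22.9% of single genes in the table, and neither Bcl2l11 nor Mcl1 was called. Since transcripts differ in length, only differences of these ratios between ovaries can be read, not the ratios themselves.

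**Figure D3:**
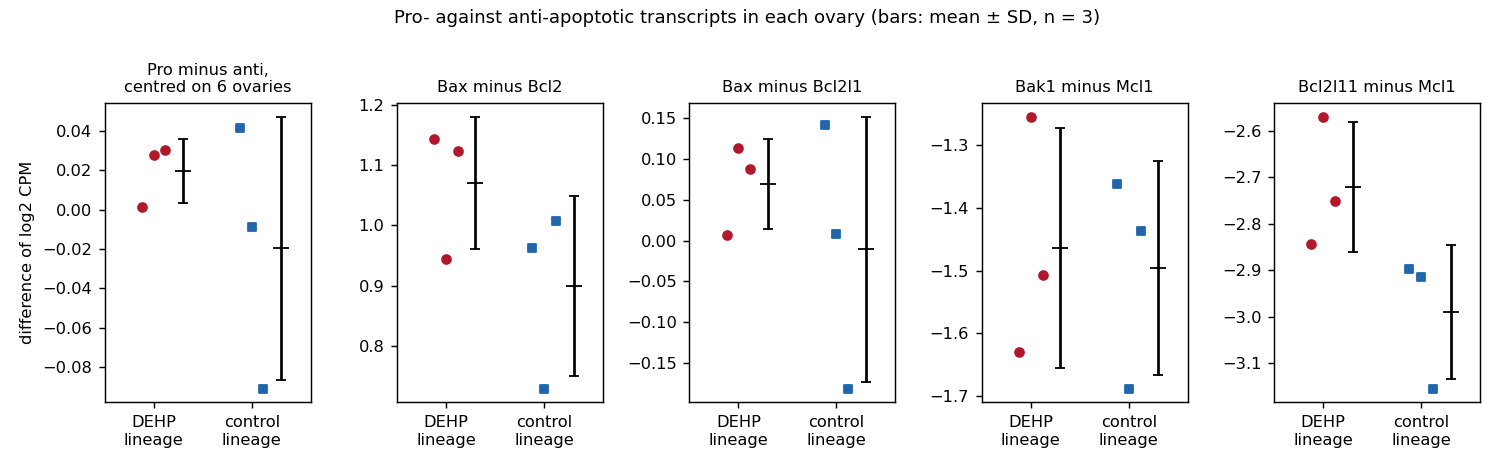
Pro-apoptotic minus anti-apoptotic level in each ovary, as a difference of log2 CPM (vertical axis), for the means of 25 and 8 genes centred on the 6 ovaries and for 4 pairs of genes; DEHP lineage left, control lineage right, black bars mean ± SD of 3 ovaries. The groups overlap in all panels except that of Bcl2l11 and Mcl1.

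The mitochondrial factors and the apoptosome had narrow intervals in all 5 genes, each within 0.5 of 0, and all 5 differences were below 0 (median -0.03), but the signs of 3 of them did not hold. Apaf1 and Cycs lay just above 0 under quantile normalization. Apaf1 was above 0 without control-lineage replicate 2 (0.04), Cycs without DEHP-lineage replicate 2 (0.01) or control-lineage replicate 3 (0.09), and Htra2 without DEHP-lineage replicate 2 (0.01), control-lineage replicate 1 (0.02) or control-lineage replicate 3 (0.002). Aifm1, a flavoprotein that moves from mitochondria to the nucleus in caspase-independent death, was the most abundant per length (25.1 CPM per kb) and stood at 103, 90.2 and 98.3 CPM in DEHP-lineage ovaries, against 99.0, 109 and 105 CPM in control-lineage ovaries. Apaf1, the scaffold of the apoptosome, was the lowest at 5.44 CPM per kb and stood at 49.3, 48.9 and 48.0 CPM in DEHP-lineage ovaries, against 46.2, 53.6 and 48.9 CPM in control-lineage ovaries. In both genes control-lineage replicate 2 was the highest ovary, and the groups overlapped. Their differences were -0.10 (-0.30 to 0.09) and -0.02 (-0.22 to 0.18). Diablo and Htra2, which displace IAPs from caspases, had differences of -0.05 (-0.21 to 0.12) and -0.03 (-0.28 to 0.21). Cytochrome c itself, from Cycs, averaged 34.1 ± 1.88 CPM in the DEHP lineage and 34.8 ± 5.46 CPM in the control lineage (SD, n = 3 each). Of the 31-base words of Cycs 29.4% also occur in other annotated genes, mostly in the pseudogene Gm10053, and those of Htra2 (37.6%) and Diablo (39.6%) are shared with genes that overlap them, so that their separate levels are uncertain.

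Among the apoptotic caspases Casp9, the initiator of the mitochondrial route, had the smallest p of all members. It stood at 60.4, 59.0 and 59.4 CPM in DEHP-lineage ovaries, against 49.8, 56.7 and 48.9 CPM in control-lineage ovaries (chromosome 4, 141793612 to 141815978). Every DEHP-lineage ovary lay above every control ovary, and control-lineage replicate 2 came closest to them. The difference was 0.20 (SE 0.0854, interval 0.004 to 0.40), with an unadjusted p of 0.0466 and an adjusted p of 0.565 by limma. Over the alternatives its adjusted p was between 0.258 and 0.793, and the unadjusted p was above 0.05 on leaving out any ovary except control-lineage replicate 2, with the replicate numbers as a block, without the mean-variance trend and with DEHP-lineage replicates 1 and 3 averaged. In the authors' deposited table Casp9 had a log2 fold change of 0.20 and an adjusted p of 0.817.

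Casp8, the initiator of the death receptor route, had the highest level of the 4 per length and stood at 35.8, 40.5 and 35.9 CPM in DEHP-lineage ovaries, against 33.8, 37.3 and 36.7 CPM in control-lineage ovaries. DEHP-lineage replicate 2 was its highest ovary and control-lineage replicate 1 its lowest, with a difference of 0.06 (-0.16 to 0.28). Casp2, an initiator linked to DNA damage and to oocyte loss, was nearly level with it per length, at 12.5 CPM per kb against 12.7 for Casp8. The interval of Casp2, -0.19 to 0.14 around a difference of -0.02, was the narrowest of the 37. Casp6, which cleaves lamins, was the lowest of the 4 and stood at 37.5, 36.6 and 38.3 CPM in DEHP-lineage ovaries, against 42.2, 42.9 and 33.9 CPM in control-lineage ovaries. Control-lineage replicate 3 was its lowest ovary and the other controls its highest, with a difference of -0.07 (-0.33 to 0.19).

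The IAPs held Birc3, another of the members without overlap. Xiap, the direct inhibitor of caspases, was the most abundant of the 3 per length (19.8 CPM per kb) and stood at 181, 196 and 181 CPM in DEHP-lineage ovaries, against 178, 206 and 181 CPM in control-lineage ovaries. Both groups had 1 higher ovary, replicate 2, and the difference was -0.02 (-0.21 to 0.18). Birc3, a ubiquitin ligase of TNF receptor complexes, stood at 31.2, 30.7 and 30.5 CPM in DEHP-lineage ovaries, against 27.1, 28.1 and 30.1 CPM in control-lineage ovaries. Its DEHP-lineage values all lay above the controls, with control-lineage replicate 3 close to them. The difference was 0.11 (-0.09 to 0.32; limma adjusted p 0.747). Its close relative Birc2, which lies beside it on chromosome 9, had a difference of 0.07 (-0.11 to 0.24) with overlap.

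Of the death receptors, Tnfrsf1a, the TNF receptor of most tissues, was at 30.6 CPM per kb and Fas at 0.969. Tnfrsf1a stood at 75.7, 79.4 and 78.1 CPM in DEHP-lineage ovaries, against 85.3, 86.5 and 71.8 CPM in control-lineage ovaries. Control-lineage replicate 3 was the lowest ovary and the other controls the highest (difference -0.06, -0.27 to 0.16). Fas (chromosome 19, 34290647 to 34327775), a receptor known for follicular atresia, stood at 2.09, 2.86 and 2.15 CPM in DEHP-lineage ovaries, against 1.53, 2.20 and 1.47 CPM in control-lineage ovaries. The highest ovary was DEHP-lineage replicate 2, and control-lineage replicate 2 lay among the DEHP-lineage values. Its difference of 0.46 was the largest positive one of the 37 members, but the interval ran from -0.21 to 1.13 (limma adjusted p 0.687).

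Downstream of these receptors, the adaptor Fadd averaged 25.5 ± 1.67 CPM in the DEHP lineage and 24.05 ± 1.58 CPM in the control lineage (SD, n = 3 each), a difference of 0.08 (-0.16 to 0.33). Tnfrsf10b, the receptor of TRAIL, had a difference of 0.05 (-0.23 to 0.32). Cflar, the catalytically dead relative of Casp8 that blocks its activation, stood at 113, 106 and 111 CPM in DEHP-lineage ovaries, against 107, 123 and 101 CPM in control-lineage ovaries. All the DEHP-lineage values lay inside the control range, and the difference rounded to zero (-0.21 to 0.22). Cflar (chromosome 1, 58711311 to 58758884) and Casp8 (chromosome 1, 58795233 to 58847503) lie on the same chromosome with 1 annotated gene between them.

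The inflammatory caspases Casp1, Casp4 and Casp12 lie side by side on chromosome 9, between 5298517 and 5373034. Casp12, a caspase of the endoplasmic reticulum, was at 4.99 CPM per kb and stood at 17.9, 19.5 and 18.9 CPM in DEHP-lineage ovaries, against 21.7, 18.5 and 18.7 CPM in control-lineage ovaries. Casp4, the rodent sensor of bacterial lipopolysaccharide, was the lowest per length at 0.452 CPM per kb and stood at 1.499, 1.80 and 1.69 CPM in DEHP-lineage ovaries, against 2.12, 1.52 and 1.51 CPM in control-lineage ovaries. In both genes control-lineage replicate 1 was the highest ovary, and their differences were -0.06 (-0.33 to 0.20) and -0.03 (-0.67 to 0.61).

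Casp1, the caspase that matures interleukin-1 beta, varied more between ovaries than any other member, by 1.84 on the log2 scale. It stood at 0.914, 1.202 and 1.18 CPM in DEHP-lineage ovaries, against 2.88, 0.805 and 1.89 CPM in control-lineage ovaries. The DEHP-lineage ovaries lay close together, between the high control-lineage replicates 1 and 3 and the low replicate 2. The difference of -0.59 had an interval of -1.72 to 0.55. It was -1.10 without control-lineage replicate 2 (limma unadjusted p 0.018, adjusted p 0.542) and -0.18 without control-lineage replicate 1. Casp1 was picked out after its values were seen. Macrophage markers, of which 11 of 12 were measured, summed to 98.2, 119 and 111 CPM in the DEHP lineage, against 129, 51.2 and 152 CPM in the control lineage, so that the same control ovary was lowest. Lymphocyte markers (7 of 14 measured) summed to 12.1, 12.3 and 12.9 CPM in the DEHP lineage, against 14.2, 6.80 and 18.03 CPM in the control lineage. The part of these cells in the values of Casp1 was not tested, and in whole ovaries fewer cells of a type and less RNA per cell cannot be told apart. The lowest marker with a row in these lists was Ncr1, a natural killer cell receptor, at a mean log2 CPM of -0.98, while Cd3e, Cd3d, Cd8a, Nkg7, Cd79a, Cd79b and Aif1 were among those with no row.

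Of the p53 family, Trp53, the stress-induced transcription factor, was at 28.3 CPM per kb and Trp63 at 1.63. Trp53 stood at 123, 111 and 119 CPM in DEHP-lineage ovaries, against 109, 104 and 122 CPM in control-lineage ovaries. The groups overlapped over most of their ranges, and the difference was 0.07 (-0.13 to 0.28). Trp63, whose long isoform guards oocytes of the mouse against DNA damage, stood at 11.3, 16.8 and 13.1 CPM in DEHP-lineage ovaries, against 16.5, 15.7 and 10.3 CPM in control-lineage ovaries. Each group held both high and low ovaries, and the difference of -0.04 had an interval of -0.58 to 0.50. Oocyte markers, of which 16 of 17 were measured, summed to 1417, 1266 and 1415 CPM in the DEHP lineage, against 1698, 1360.5 and 1732 CPM in the control lineage. Of these 16 genes 14 had lower means in the DEHP lineage, with a median difference of -0.20. Control-lineage replicate 3 had the highest sum of oocyte markers and the lowest level of Trp63, and the part of oocyte number in Trp63 was not tested. Squamous epithelium, another site of Trp63, was represented by Col17a1 alone, and Krt5, Krt14, Krt15, Krt17 and Dsg3 had no row.

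**Figure D4:**
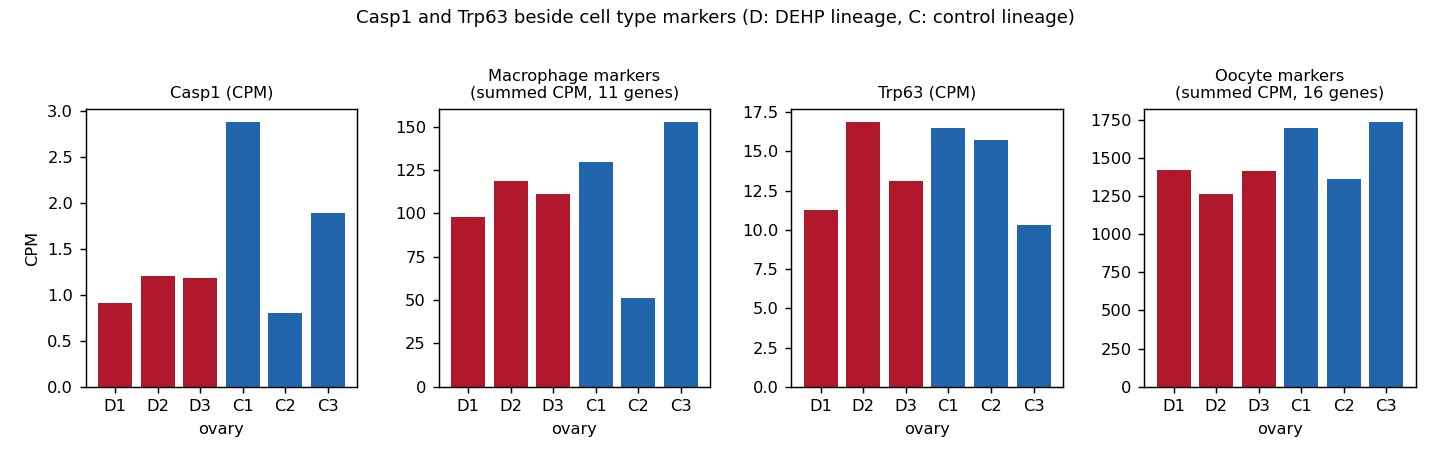
Casp1 and Trp63 in each ovary (CPM, vertical axes) beside the summed CPM of 11 macrophage and 16 oocyte markers; bars are single ovaries, red for DEHP-lineage replicates (D1 to D3) and blue for control-lineage replicates (C1 to C3). Casp1 and the macrophage sum are both lowest in C2, while Trp63 is lowest in C3, where the oocyte sum is highest.

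Other genes of the pathway were taken from lists of the remaining BCL2-like, IAP, TNF family, inflammasome and p53 genes and of other cell death genes. Of 95 listed, 76 had a row and 0 were called (limma adjusted p 0.491 or more). An unadjusted p under 0.05 was found for 6 of the 76, against 8.78% of all genes, and 19 (25.0%) had no overlap, against 22.9% of all genes. Among p53 partners and targets all 22 were measured, 13 with a difference above 0 and 9 below. Cdkn1a, the cell cycle inhibitor that is the best known p53 target, had the smallest p. Its log2 CPM was 2.69, 2.20 and 2.57 in DEHP-lineage ovaries, against 1.56, 2.04 and 1.35 in control-lineage ovaries, and all DEHP-lineage ovaries lay above the controls. Its difference was 0.83 (0.23 to 1.44; limma unadjusted p 0.0135, adjusted p 0.491). Plk2, a kinase that p53 induces, had a difference of 0.35 (0.06 to 0.63). Mdm2, the ubiquitin ligase of p53 and itself its target, had one of -0.02 (-0.20 to 0.17). Of the 22, the groups did not overlap in 5 (22.7%), near the 22.9% of all genes. These were 4 on the higher side, where 10.8% of all genes lay, and 1, Phlda3, on the lower side, where 12.2% lay. The difference of Phlda3 was -0.34 (-0.74 to 0.06). Bnip3, a mitophagy receptor related to the BH3-only proteins, was the remaining gene among the 3 smallest p, with a difference of 0.28 (0.06 to 0.49; limma adjusted p 0.491). Tnfsf10, which encodes the ligand TRAIL of the receptor Tnfrsf10b and was named after its values were seen, had no overlap and a difference of 0.31 (0.04 to 0.58; limma adjusted p 0.529). Bcl2l12, of the BCL2-like list, had a smaller p than Tnfsf10, no overlap and a difference of 0.48 (0.08 to 0.87; limma adjusted p 0.511).

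Between ovaries, 30 members varied by less than 0.5 on the log2 scale over all 6, 5 by 0.5 to 1 and 2, Bmf and Casp1, by more. Control-lineage replicate 2 held the highest value of 14 members and control-lineage replicate 3 the lowest of 10. DEHP-lineage replicate 3 held the highest value of 1 member and the lowest of 0. The SD was smaller in the DEHP lineage than in the control lineage in 32 of 37 members (86.5%), against 69.6% of all genes. The direction missing from the deposited values (share of within-group variation 2.8e-19) was taken as the authors' removed surrogate variable. Its largest weights were on DEHP-lineage replicates 1 and 3, -0.60 and 0.75. All SDs here therefore lack the spread along it, and the size of its part in the smaller DEHP-lineage SDs was not tested. Across all genes DEHP-lineage replicates 1 and 3 correlated at 0.998 and every other pair of libraries at 0.978 to 0.989. These correlations are of values that lack the removed direction, whose weights on replicates 1 and 3 are opposite in sign. Its part in the 0.998 was not tested, nor its part where DEHP-lineage values are said to lie close together. Both were kept in n = 3. With the pair averaged, 0 members were called and 0 had an unadjusted p under 0.05.

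**Figure D5:**
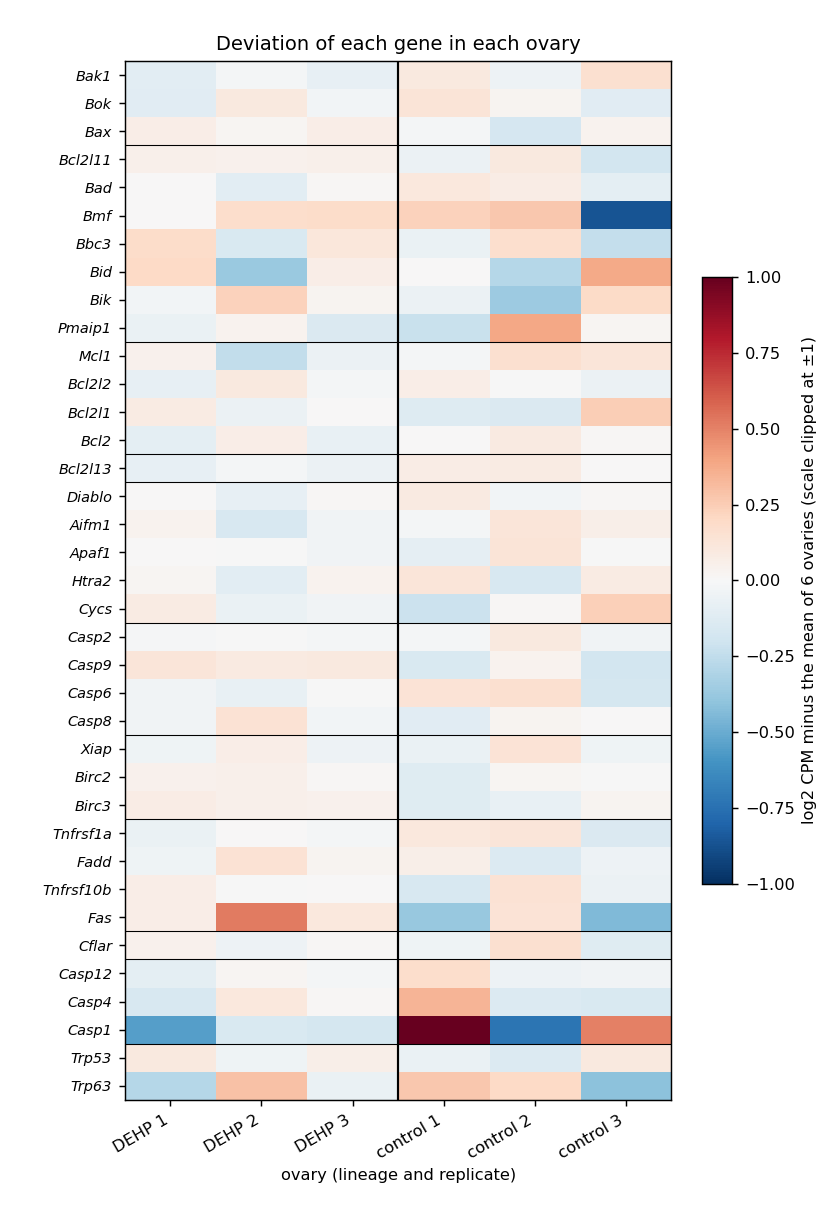
Deviation of each of the 37 genes (rows, grouped by role) from its own mean over the 6 ovaries, in log2 CPM (colour, clipped at 1 in size), for DEHP-lineage ovaries left of the black line and control-lineage ovaries right of it. The strongest colours are those of Casp1 in control-lineage replicate 1 and Bmf in control-lineage replicate 3, and the column of DEHP-lineage replicate 3 is the palest. The values lack the removed surrogate direction, whose largest weights are on DEHP-lineage replicates 1 and 3.

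The tissue was checked against its markers, and granulosa and oocyte lists were both well detected. Granulosa markers (11 of 12 measured) summed to 10164, 11064 and 9889 CPM in the DEHP lineage, against 8436, 9297 and 10058 CPM in the control lineage. Of the 11, 6 had higher and 5 lower means in the DEHP lineage. The sums weigh most on Inha, the highest of them at a mean log2 CPM of 12.1. Markers of other cells differed between ovaries of a lineage, most of all those of adipocytes, which summed to 57.1, 509 and 109 CPM in the DEHP lineage, against 236, 112 and 69.2 CPM in the control lineage. Smooth muscle markers (8 of 8 measured) had lower means in the DEHP lineage in all 8, summing to 1629 to 1903 CPM in the DEHP lineage and 2033 to 2285 CPM in the control lineage. Erythroid markers (5 of 7 measured) had higher means in the DEHP lineage in all 5, with a median difference of 0.84 and an unadjusted p under 0.05 by limma in 2. They summed to 290.0, 115 and 211 CPM in the DEHP lineage, against 65.6, 77.3 and 127 CPM in the control lineage. Theca and interstitial markers (9 of 9 measured) also had lower means in all 9, summing to 2681 to 2779 CPM in the DEHP lineage and 2892 to 3591 CPM in the control lineage. The part of these cells in the members' values was not tested. In the authors' deposited table the members' adjusted p lay between 0.817 and 0.996, and 36 of 37 had a log2 fold change of the same sign as here.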

How the data were processed

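Polyadenylated RNA of 6 ovaries, 3 per lineage, was sequenced from one end in strand-marked libraries, per the labels' protocols. Per the submitters' processing notes, which give no roles or settings, edgeR 3.20.5 and Subread 1.5.2 with featureCounts were used beside STAR 2.5.3a, R 3.4.3, Trimmomatic 0.36, FastQC 0.11.5 and bcl2fastq 2.17.1.14, with GRCm38.p6 as the build. The authors deposited log2 CPM per ovary with a surrogate variable removed, with a p-value, an adjusted p and a log2 fold change of their own per gene. Depth is unknown, so no counting interval was computed.

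Differences were fitted with limma 3.58.1 in R 4.3.3 on all 16454 genes, with a mean-variance trend, two-sided and Benjamini-Hochberg adjusted, with no filter, pseudocount or covariate. Deviations from the group means filled 3 of 4 possible directions, so 3 residual degrees of freedom were used. On simulated data of 16454 genes with 200 changed and the same direction removed, 7.88% of calls were false and 70.1% of genes changed by a log2 of 1 were recovered. Lengths (summed exons of all transcripts), shared 31-base words and BH3 stretches come from GENCODE M21. Deviations of same-numbered ovaries had correlations of -0.33, -0.003 and -0.20 in the deposited values. These cannot show whether replicate numbers paired the ovaries, since the surrogate variable had been removed before.

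The members, roles, lists and alternatives were chosen with earlier results of these data known. Values per ovary are given for members with an unadjusted p under 0.05 or no overlap, for Bax, Bcl2, Bcl2l1, Mcl1, Casp9, Fas, Xiap, Trp53 and Trp63, and for the highest and lowest of each role per kb. Those of Bcl2l11, Bmf and Casp1 were added after they were seen. Of the pathway lists, the 3 smallest p, Mdm2 and Cdkn1a are named, and some listed genes are not reported here. Alternatives were 4 residual degrees of freedom, the replicate block, quantile normalization, median centring, log2(CPM + 1), genes with a mean log2 CPM of at least 1, no trend, each ovary left out and DEHP-lineage replicates 1 and 3 averaged.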

Additional observations from a re-analysis of the deposited data

How the results depend on the processing

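No member was called under any alternative listed (0 each). The replicate block called 155 of all genes on 1.68 residual degrees of freedom and no member, and 4 residual degrees of freedom called 20 genes. Over all genes, where 7 were called, the count was 3 with quantile normalization, 1 without the trend, 5 with median centring, 6 with the filter and 3 to 36 with 1 ovary left out. The 1 member with an unadjusted p under 0.05 fell to 0 under the replicate block, without the trend and with DEHP-lineage replicates 1 and 3 averaged, and ranged from 0 to 2 when 1 ovary was left out. The count without overlap was 5 under quantile normalization and ranged from 4 to 11 when 1 ovary was left out, with 23.9% to 38.0% of all genes. The median of the pro-apoptotic members ranged from -0.012 to 0.025 with 1 ovary left out. The balance of pro- against anti-apoptotic members ranged from 0.0034 to 0.070 in the same fits. Of single differences, none of which was called, 248 of 259 kept their sign under the other alternatives and 187 of 222 when 1 ovary was left out, and the lowest adjusted p was 0.258. Under 4 residual degrees of freedom, the replicate block and no trend the difference is that of the main fit by construction. Those rows of the 259 could not change sign. Quantile normalization turned Bcl2l2 to 0.016, Casp2 to 0.00033, Apaf1 to 0.0012, Cycs to 0.00021 and Xiap to 0.012. Median centring turned Bcl2l2 to 0.0061. Averaging DEHP-lineage replicates 1 and 3 turned Bok to 0.0020, Bcl2l2 to 0.021, Cflar to -0.012, Xiap to 0.0022 and Trp63 to 0.042. Differences that crossed 0 when 1 ovary was left out, with the cause not tested, had these ranges: Bok -0.090 to 0.031, Bcl2l1 -0.048 to 0.15, Bcl2l2 -0.055 to 0.037, Bid -0.22 to 0.11, Bmf -0.13 to 0.44, Bbc3 -5.9e-05 to 0.20, Pmaip1 -0.26 to 0.040, Casp2 -0.050 to 0.018, Casp8 -0.0017 to 0.086, Casp4 -0.11 to 0.13, Casp12 -0.10 to 0.011, Tnfrsf10b -0.018 to 0.13, Cflar -0.061 to 0.083, Apaf1 -0.072 to 0.035, Cycs -0.13 to 0.094, Htra2 -0.12 to 0.022, Xiap -0.056 to 0.048 and Trp63 -0.25 to 0.096. Fold changes of low genes depend on a prior count that no source used here gives. Library depth is unknown. Intervals were widest for Casp1, Pmaip1, Bik, Bmf and Fas.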
